A study of Gallus gallus with 24 samples.

Results

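The genes described here are the cytochrome P450 genes of the chicken, taken as every row of the count table whose symbol begins with CYP followed by a digit. There were 32 such rows of 15051, under 31 symbols, since CYP2W1 names 2 rows. By family number, 16 belonged to families 1 to 3, 3 to the fatty acid family 4, 6 to the sterol and bile acid families, 3 to the steroid hormone families and 3 to the vitamin D and retinoid families, and CYP20A1 stood alone. The study gave salinomycin (Sal), an ionophore used in poultry feed against coccidia, to female broiler chickens. The Sal-exposed birds had a diet with 10.5 mg Sal per kg feed, an estimated 0.9 mg per kg body weight per day, for the last 2 weeks before sampling in week 5, after a Sal-free start. The control birds were kept without Sal throughout. RNA-seq was analysed for 6 Sal-exposed and 6 control livers and for 6 Sal-exposed and 6 control hearts. The labels do not say which heart and liver came from the same bird.

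P450 enzymes are heme proteins that insert an oxygen atom into small lipophilic molecules, with electrons passed on by cytochrome P450 reductase in the endoplasmic reticulum or by ferredoxin in mitochondria. Members of the first families act mostly on foreign compounds and are switched on in liver by receptors that sense such compounds. The other families act mainly on the body's own fatty acids, sterols, bile acids, steroid hormones, vitamin D and retinoids. The gene symbols largely follow human names, and roles given below are those known in mammals unless chicken is named.

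Depth lay between 31.4 and 44.5 M counts on genes per library. P450 genes received 2630 to 9493 counts per heart and 131643 to 298321 counts per liver. Mitochondrially encoded genes took 6.92 to 30.4% of the counts in Sal-exposed livers, with a median of 8.15%, and 5.21 to 26.5% in control livers, with a median of 20.1%. In Sal-exposed hearts that share was 40.7 to 79.6%, and it was above 70% in hearts 1 and 4, against 38.6 to 47.9% in control hearts. Levels are given as CPM, counts per 1e6 counts on genes after TMM scaling, which are not corrected for transcript length and so are compared between libraries and not between genes. The spread between 6 libraries is given as the lowest, the median and the highest. Tests are edgeR's quasi-likelihood tests with Benjamini-Hochberg adjustment over all genes tested, and a call required both an adjusted p no larger than 0.05 and a log2FC of at least 1 in size. The SE beside an edgeR log2FC is the size of that log2FC divided by the square root of the test's F statistic. For DESeq2 the SE is the one that tool reports.

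In birds without Sal, 30 of the 32 P450 rows averaged over 1 CPM in liver and 16 did so in heart, most of them at lower levels than in liver. Of the 29 members tested between control livers and control hearts, 24 were called, or 82.8%, against 50.8% of all 14121 genes tested. Liver was higher for 23 of the 24 and heart for 1, where 23.9% and 26.9% of all genes tested were called higher in liver and in heart. Control livers and hearts did not overlap for 21 members, all higher in liver, where 53.1% of all genes tested had no overlap. Of the 29 members, 9 did not pass the count filter in heart and entered this comparison through their high liver counts. Their call as higher in liver and their lack of overlap follow from the filter. Of the 20 members that passed the filter in each tissue on its own, 14 were called higher in liver and 1 higher in heart. Among these 20, 12 had no overlap, all higher in liver. Of 12556 genes tested that passed in both tissues, 46.7% were called, 2793 higher in liver and 3075 higher in heart. No overlap was seen for 6334 of those genes, 2708 of them higher in liver. The 3 genes with most counts in control livers were CYP2C23a, CYP27A1 and CYP3A5, which together took 48.2% of the P450 counts there. The 3 with most counts in control hearts were CYP2D6, CYP46A1 and CYP1B1, with 49.7% of the P450 counts of those hearts.

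CYP27A1, the mitochondrial enzyme that oxidizes the sterol side chain, had 627, 1042 and 1536 CPM as lowest, median and highest in control livers, against 11.1, 12.5 and 13.8 CPM in control hearts. For these levels and for the overlap of liver and heart, all 24 libraries were scaled together. The levels therefore differ slightly from those within one tissue given below. The log2FC and adjusted p came from a fit of the control livers and control hearts alone, with its own scaling. For CYP27A1 every control liver lay above every control heart, with a log2FC of 6.44 for liver over heart (SE 0.28, edgeR adjusted p = 1.65e-10). CYP2D6, whose human namesake oxidizes many drugs, was the P450 gene with the most counts in heart, yet had 135, 211 and 312 CPM in control livers against 39.9, 50.1 and 60.0 CPM in control hearts, without overlap (log2FC 2.14, SE 0.21, edgeR adjusted p = 5.17e-07). CYP46A1, a cholesterol hydroxylase best known from brain, had 43.1, 60.7 and 67.0 CPM in control livers and 19, 23.2 and 26.5 CPM in control hearts (log2FC 1.36, SE 0.13).

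CYP1B1, which oxidizes estrogens and polycyclic aromatics, was the member called higher in heart, with 1.31, 4.63 and 7.49 CPM in control livers against 7.0, 15.3 and 27.1 CPM in control hearts. Liver and heart overlapped for this gene, and the log2FC was -1.78 (SE 0.42, edgeR adjusted p = 0.00165). CYP7B1 passed the adjusted p at a log2FC of 0.88 (SE 0.25), under the fold required. CYP1C1, CYP2R1, CYP11A1 and CYP21A1 were not called in either direction. CYP17A1, CYP24A1 and CYP26A1 had too few counts for this comparison.

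Many liver P450 genes were close to absent from heart. CYP1A1, CYP1A2, CYP2AC1, CYP2AC2, CYP2C18, CYP2C23a, CYP3A5, CYP7A1 and both CYP2W1 rows had between 10 and 56 counts each over all 6 control hearts together. In control livers the medians of these genes were between 6.77 and 697 CPM. Each of these genes had its 6 control livers above its 6 control hearts, which follows from choosing them by low heart counts and is no separate result. Their fitted ratios are not given because they rest on so few heart counts.

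**Figure D1:**
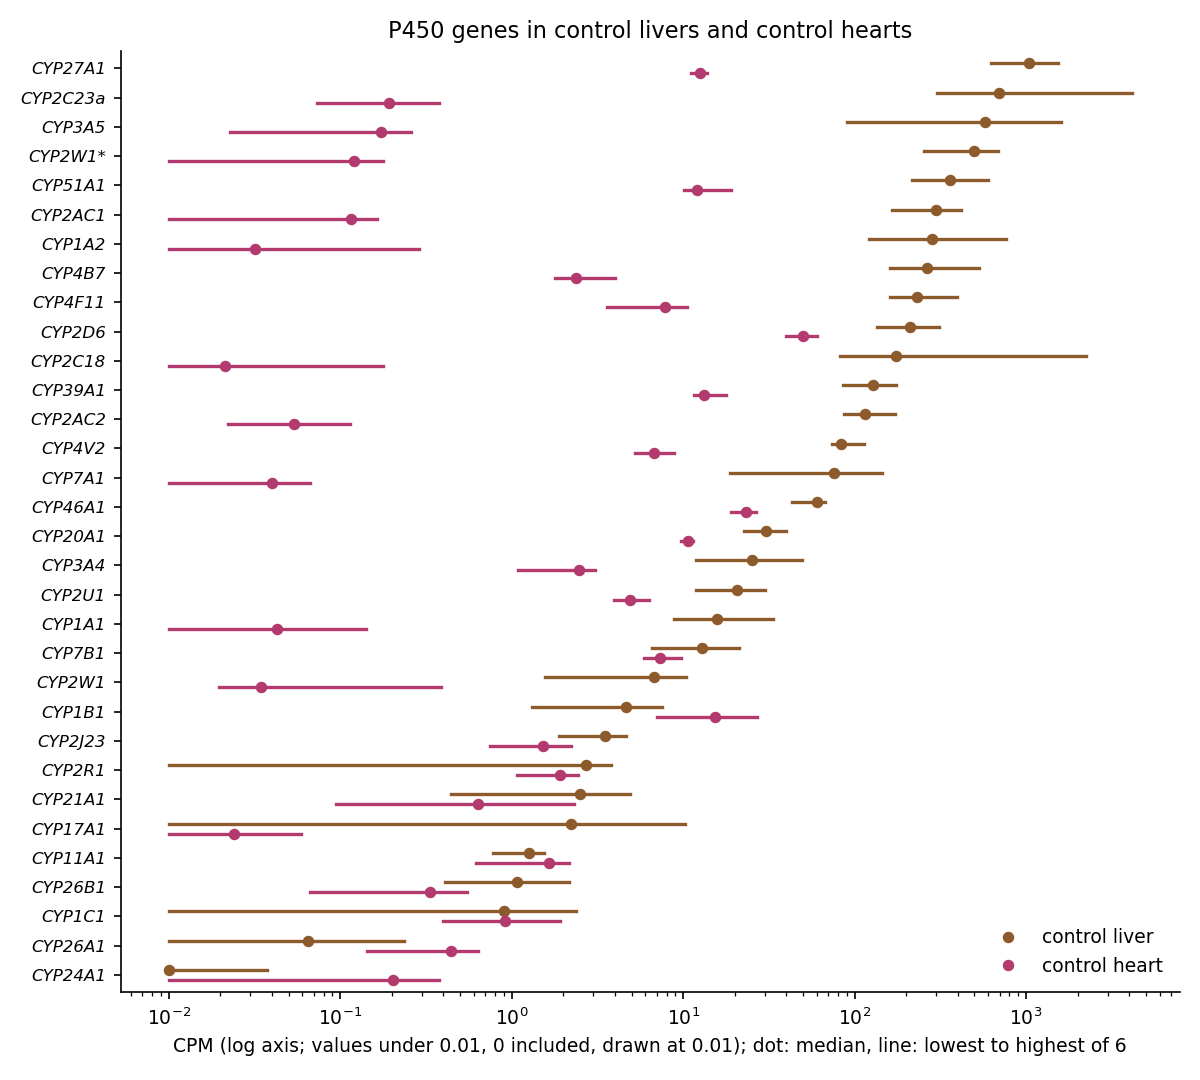
Levels of all 32 P450 rows in control livers and control hearts, as CPM on a log axis, with the median as a dot and a line between the lowest and highest of 6 libraries; values at or near 0 are drawn at the left end of the axis. The genes are ordered by their median in control livers, and CYP1B1 is the called gene whose heart values lie to the right of its liver values. The asterisk marks the CYP2W1 row ENSGALG00010022388.

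In the liver of Sal-exposed birds, 4 P450 genes fell (CYP2C23a, CYP3A4, CYP2AC2 and CYP4F11) and 2 rose (CYP2U1 and CYP7B1). These are 6 of the 30 members tested, where 7.01% of all 13587 genes tested were called, 3.67% lower and 3.34% higher. The adjusted p alone was passed by 7 of the 30, or 23.3%, against 15.4% of all genes tested, the seventh being the CYP2W1 row ENSGALG00010022388. Of the 30 members, 23 had a log2FC below 0, or 76.7%, against 50.7% of all genes tested, and the median log2FC was -0.40 over the members and -0.01 over all genes tested. In families 1 to 3, 3 of 16 members fell, 1 rose, and the median log2FC was -0.69. In all other families, 1 of 14 tested members fell, 1 rose, and the median log2FC was -0.33. Bulk tissue was measured, so fewer cells of one type and less RNA per cell cannot be told apart.

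**Figure D2:**
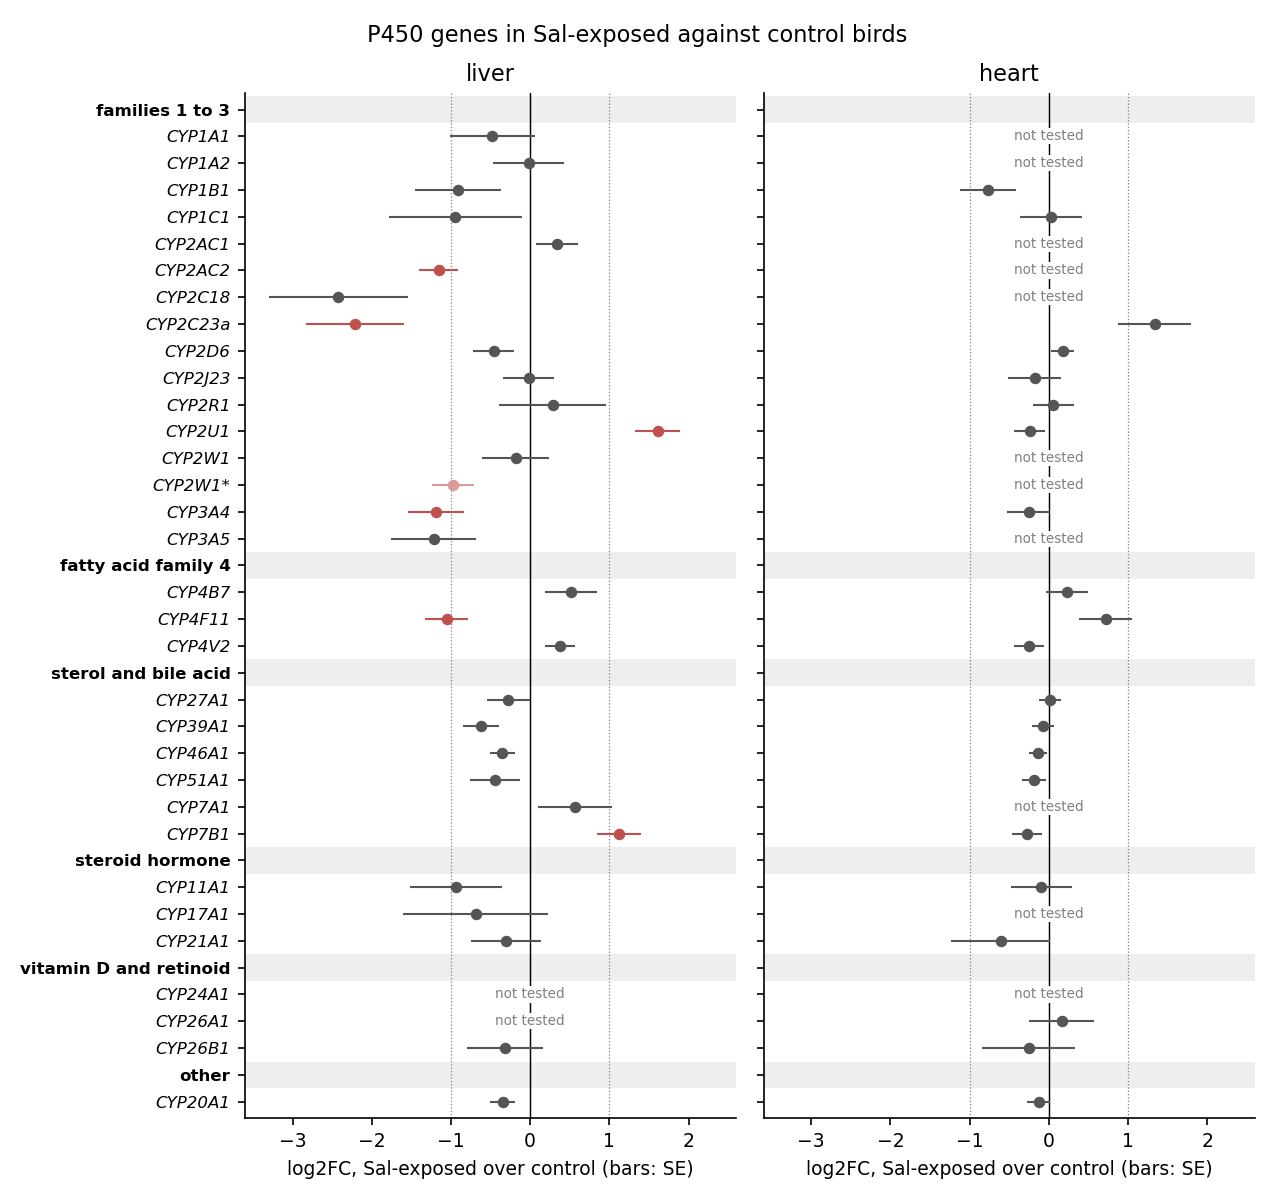
Log2FC of Sal-exposed over control birds for every P450 row, in liver on the left and heart on the right, grouped by family. Bars are the SE worked out from the edgeR test, and dotted lines mark the fold required for a call. Red points are called, the pale red point passed the adjusted p alone, and grey points passed neither; 6 genes are called in liver and none in heart. The asterisk marks the CYP2W1 row ENSGALG00010022388.

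Among the genes of families 1 to 3 that fell, CYP2C23a (ENSGALG00010020676, chromosome 6, 18338578 to 18358414 on GRCg7b) had the lowest log2FC. Its row spans both CYP2C23a and CYP2C23b of RefSeq, the chicken CYP2H genes, which are known in chicken for their induction by phenobarbital. It had 209.7, 247 and 692 CPM as lowest, median and highest in Sal-exposed livers, against 302, 734 and 4226 CPM in control livers. All Sal-exposed livers were below the control median and 4 were below every control liver, while control livers 4 and 6 stood far above the rest, at 4226 and 2591 CPM. Sal-exposed liver 4, the highest of its group, also had the highest mitochondrial share of all livers, 30.4%. Control livers 2 and 3, with shares of 5.21 and 9.68%, had 302 and 325 CPM. Control livers 1, 4, 5 and 6, with shares of 19.2 to 26.5%, had 710 to 4226 CPM. The part of that share in these values was not tested apart from a fit with it as a covariate, given below. Without that covariate the log2FC was -2.21 (SE 0.62, edgeR adjusted p = 0.0291). When control liver 4 was left out it was -1.55 with an adjusted p of 0.0811.

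CYP3A4 (ENSGALG00010017848, chromosome 14, 3895427 to 3906901) carries the name of the main drug-oxidizing P450 of human liver. It had 8.49, 12.0 and 23.6 CPM in Sal-exposed livers, against 12.1, 25.5 and 54.9 CPM in control livers. The groups overlapped, with 3 Sal-exposed livers below every control liver and all 6 below the control median. The log2FC was -1.19 (SE 0.35, edgeR adjusted p = 0.0356). The adjacent CYP3A5 had many more counts, at 139, 312 and 519 CPM in Sal-exposed livers and 91.8, 597 and 1644 CPM in control livers. Its log2FC of -1.22 was similar in size but had a larger error (SE 0.54, edgeR adjusted p = 0.136). The control livers of CYP3A5 covered the whole range of the Sal-exposed livers and more, with control livers 4, 5 and 6 at 819 to 1644 CPM.

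CYP2AC2 (ENSGALG00010011879, chromosome 3, 108582708 to 108591891) had 30.9, 56.1 and 83.9 CPM in Sal-exposed livers and 87.0, 127 and 177 CPM in control livers. All 6 Sal-exposed livers lay below all 6 control livers. The log2FC was -1.15 (SE 0.25, edgeR adjusted p = 0.0101). CYP2AC2 and CYP2U1 were the 2 members without overlap between the groups in liver, where 5.73% of all genes tested had none. The span of CYP2AC2 overlaps that of CENPQ, and whether counting used the strand is not given in the sources used here. The same limit holds for CYP7A1 with UBXN2B, CYP51A1 with AKAP9, CYP2R1 with CALCA and CYP17A1 with BORCS7. CYP20A1 and CYP21A1 each overlap an unnamed row.

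The CYP2W1 row ENSGALG00010022388 (chromosome 14, 2268020 to 2276630) had 183, 262 and 323 CPM in Sal-exposed livers, against 257, 525 and 715 CPM in control livers. The groups overlapped, with 3 Sal-exposed livers below every control liver, and the log2FC of -0.97 (SE 0.26, edgeR adjusted p = 0.0255) was just short of the fold required. The other CYP2W1 row, ENSGALG00010022357, had far fewer counts, with 3.24, 5.04 and 13.3 CPM in Sal-exposed livers and 1.75, 7.02 and 10.6 CPM in control livers (log2FC -0.18, SE 0.42). The spans of the pair overlap by 62 bases. CYP2W1 of RefSeq, at 2257319 to 2267672, lies 71.9% within ENSGALG00010022357 and outside the span of ENSGALG00010022388.

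CYP4F11 (ENSGALG00010003634, chromosome 30, 248863 to 256097), of a subfamily that hydroxylates the end of long fatty acid chains, fell as well. It had 73.6, 117 and 198 CPM in Sal-exposed livers and 164, 240.2 and 406 CPM in control livers. Of the Sal-exposed livers 5 were below every control liver, and the log2FC was -1.05 (SE 0.27, edgeR adjusted p = 0.0215). The other genes of family 4 did not pass the test, with a log2FC of 0.51 (SE 0.33) for CYP4B7 and 0.37 (SE 0.19) for CYP4V2. The row named CYP4B7 spans CYP4A22 and CYP4B7 of RefSeq, so its counts may belong to either.

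CYP2U1 (ENSGALG00010005656, chromosome 4, 37533592 to 37546267), which hydroxylates arachidonic acid and other long fatty acids, rose. It had 33, 67.7 and 99.8 CPM in Sal-exposed livers, against 12.8, 21.5 and 29.8 CPM in control livers. Every Sal-exposed liver was above every control liver, and the log2FC of 1.61 (SE 0.28, edgeR adjusted p = 0.00518) was the highest of the members. CYP7B1 (ENSGALG00010003006, chromosome 2, 114096364 to 114218426) hydroxylates oxysterols on the alternative route to bile acids, and it rose too. It had 19.5, 26.6 and 47.4 CPM in Sal-exposed livers and 7.14, 13.6 and 21.1 CPM in control livers. Of the Sal-exposed livers 5 were above every control liver, with Sal-exposed liver 2 below control liver 2 alone, and the log2FC was 1.12 (SE 0.28, edgeR adjusted p = 0.0177).

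**Figure D3:**
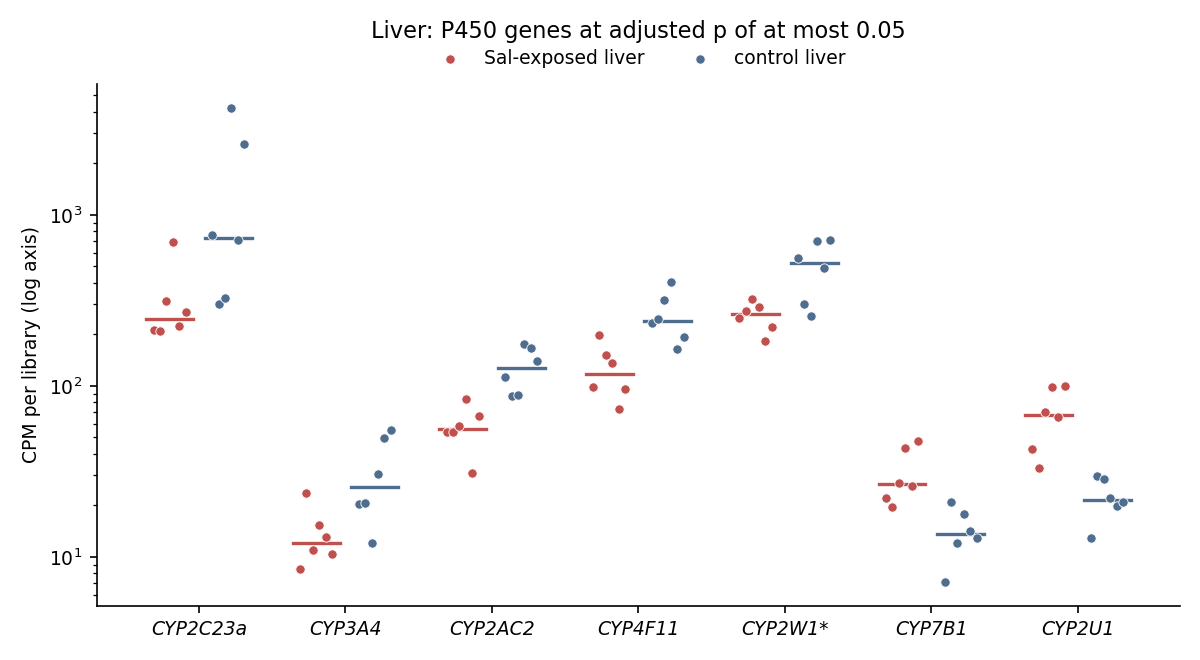
CPM per library on a log axis for the 7 P450 rows with an adjusted p of at most 0.05 in liver, Sal-exposed livers in red to the left of control livers in blue, with a bar at the median. CYP2AC2 and CYP2U1 show no overlap, and CYP2C23a shows control livers 4 and 6 far above the others. The asterisk marks the CYP2W1 row ENSGALG00010022388.

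These liver calls depended on the fit. With 4 surrogate variables estimated from the data, edgeR called none of the 30 members, with 4 at an unadjusted p below 0.05, and none of all genes tested, and DESeq2 with the same surrogate variables called 1, CYP1B1. With the mitochondrial share as a covariate, an alternative chosen after the data were seen, 3 members were called, CYP2U1, CYP7B1 and CYP4F11, while CYP2AC2 had a log2FC of -0.96 (edgeR adjusted p = 0.0129), CYP2C23a of -1.50 (0.0915) and CYP3A4 of -0.83 (0.113). The count of called members was 2 without Sal-exposed liver 6 and 3 without Sal-exposed liver 1, Sal-exposed liver 5 or control liver 4. Calls over all genes fell in these fits too, so the drop was not confined to the members. They were 785, 607 and 685 without Sal-exposed liver 1, Sal-exposed liver 5 and control liver 4, against 952. Of the fits that left out 1 liver, the one without Sal-exposed liver 6 called the fewest genes. Some others called more than 952, up to 1296 without Sal-exposed liver 2. CYP2AC2 and CYP2U1 were called in all 12 fits that left out 1 liver. CYP7B1 was called in 10 of the 12 (not without Sal-exposed liver 6 or control liver 1), CYP2C23a and CYP4F11 in 7 each, and CYP3A4 in 5.

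The remaining members of families 1 to 3 did not pass the test in liver. CYP2C18 had a log2FC of -2.42 (SE 0.88, edgeR adjusted p = 0.0743), with 9.73, 88.3 and 214 CPM in Sal-exposed livers and 91.9, 181 and 2284 CPM in control livers. Its value of 2284 CPM came from control liver 4, and the next control liver had 221 CPM. CYP1A2, which oxidizes planar aromatic compounds, had 80.8, 308 and 638 CPM in Sal-exposed livers and 132, 287 and 781 CPM in control livers. The groups covered nearly the same range, with a log2FC of -0.02 (SE 0.45, edgeR adjusted p = 0.98). CYP1A1, CYP1B1, CYP1C1, CYP2D6 and CYP2J23 had log2FC between -0.95 and -0.02, and CYP2AC1 and CYP2R1 had log2FC of 0.34 and 0.28. CYP2R1, a hydroxylase of vitamin D, had only 1.48, 2.42 and 5.65 CPM in Sal-exposed livers and 0, 2.85 and 3.88 CPM in control livers (SE of the log2FC 0.68).

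Several P450 genes lie side by side, and the ratio of counts between such neighbours needs no scaling between libraries. This comparison was chosen after the values of single genes had been seen, for the 4 pairs of members no more than 50000 bases apart. The counts of CYP2AC2 divided by those of its neighbour CYP2AC1, which lies 2228 bases away, were 0.111, 0.155 and 0.221 in Sal-exposed livers as lowest, median and highest. In control livers the ratio was 0.232, 0.441 and 0.983, so that every Sal-exposed liver had a lower ratio than every control liver. The mean log2 ratio was -2.71 ± 0.42 in Sal-exposed livers and -1.19 ± 0.77 in control livers (SD, n = 6 each), a 2.88-fold difference. The two-sided exact permutation test gave p = 0.00216, the smallest that 6 against 6 livers allow, and 0.00866 adjusted over the 4 pairs.

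For the other pairs the groups overlapped. The ratio of CYP1A1 to CYP1A2, whose spans overlap by 4718 bases, had a median of 0.0416 in Sal-exposed livers and 0.0642 in control livers (exact permutation p = 0.0519, adjusted 0.104). The ratio of CYP3A5 to CYP3A4 had a median of 23.8 in Sal-exposed livers and 20.2 in control livers (exact permutation p = 0.392, adjusted 0.392). The ratio of the CYP2W1 rows had a median of 50.4 in Sal-exposed livers and 64.2 in control livers (exact permutation p = 0.305, adjusted 0.392). Members of one subfamily are alike in sequence and RSEM divides reads between near-identical copies by estimate, so the split within a pair is uncertain.

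**Figure D4:**
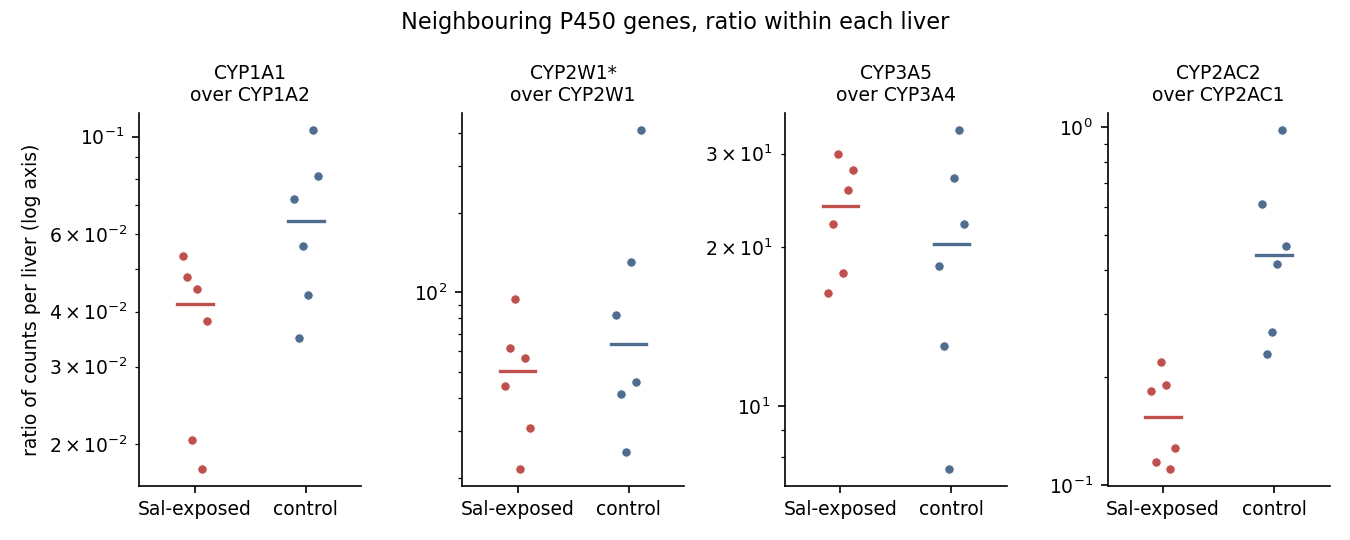
Ratio of counts between neighbouring P450 genes within each liver, on log axes, with Sal-exposed livers in red to the left of control livers in blue and a bar at the median. The groups are apart for CYP2AC2 over CYP2AC1 and overlap for the other 3 pairs. The asterisk marks the CYP2W1 row ENSGALG00010022388.

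The sterol and bile acid genes of the liver showed 1 call, CYP7B1. CYP7A1, the rate-limiting enzyme of the classic route to bile acids, had 28.5, 99.3 and 241 CPM in Sal-exposed livers and 19.3, 79.9 and 145 CPM in control livers (log2FC 0.57, SE 0.47, edgeR adjusted p = 0.433). CYP27A1, which starts the alternative route, had 697, 739 and 1591 CPM in Sal-exposed livers and 700.2, 1075 and 1552 CPM in control livers (log2FC -0.27, SE 0.28, edgeR adjusted p = 0.533). Both genes overlapped between the groups, with 5 of 6 Sal-exposed livers above the control median for CYP7A1 and below it for CYP27A1. CYP51A1, a demethylase of cholesterol synthesis, had a log2FC of -0.44 (SE 0.31, edgeR adjusted p = 0.35), with 169.8, 246 and 454 CPM in Sal-exposed livers and 221, 394 and 606 CPM in control livers. CYP39A1, an oxysterol hydroxylase, had 63.2, 79.1 and 138 CPM in Sal-exposed livers and 92.6, 130.3 and 195 CPM in control livers. Of the Sal-exposed livers 5 were below every control liver, with Sal-exposed liver 4 the exception, and the log2FC of -0.62 (SE 0.23) had an adjusted p of 0.0794 in edgeR. CYP46A1 had a log2FC of -0.35 (SE 0.15, edgeR adjusted p = 0.132).

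The steroid hormone genes were low in liver, with CYP11A1, CYP17A1 and CYP21A1 at medians of 0.679 to 2.08 CPM in Sal-exposed livers and 1.32 to 2.55 CPM in control livers, and none passed the test. CYP26B1, which clears retinoic acid, had medians of 0.995 CPM in Sal-exposed and 1.17 CPM in control livers (log2FC -0.32, SE 0.47). CYP26A1, which also clears retinoic acid, had 18 counts over the Sal-exposed livers and 16 over the control livers. CYP24A1, which inactivates vitamin D, had 1 count over the Sal-exposed livers and 2 over the control livers, and neither gene was tested in liver. CYP20A1, whose substrate is not established, had a log2FC of -0.35 (SE 0.16, edgeR adjusted p = 0.143).

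In the heart, no P450 gene was called between Sal-exposed and control birds. edgeR called 0 of the 21 members tested, against 0.111% of all 13526 genes tested, with 2 members at an unadjusted p below 0.05, CYP2C23a and CYP1B1. DESeq2, with and without surrogate variables, called 1 member, CYP3A5, which the edgeR fit left out for its low counts. Without surrogate variables DESeq2 called 1.17% of all genes it tested, or 171 genes, and with them 255 genes. No member was without overlap between the groups, against 2.61% of all genes tested, and the median log2FC was -0.13 over the members and -0.02 over all genes tested.

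The members with most counts in heart overlapped between the groups. CYP2D6 had 45.9, 53.3 and 71.8 CPM in Sal-exposed hearts and 39, 49.0 and 58.6 CPM in control hearts (log2FC 0.17, SE 0.14, edgeR adjusted p = 0.568). CYP46A1 had 18.1, 19.2 and 24 CPM in Sal-exposed hearts and 18.6, 22.6 and 25.9 CPM in control hearts (log2FC -0.14, SE 0.12, edgeR adjusted p = 0.576). Neither gene passed the test. CYP1B1 was lower on average, with 4.67, 8.71 and 18.1 CPM in Sal-exposed hearts and 6.86, 14.9 and 26.5 CPM in control hearts, at a log2FC of -0.77 (SE 0.35, edgeR adjusted p = 0.282). The sterol genes CYP27A1, CYP39A1 and CYP51A1 had log2FC of 0.02, -0.08 and -0.19 in heart, with SE of 0.14 to 0.15. The count of called members stayed at 0 in edgeR without Sal-exposed hearts 1 and 4, where 12 of all genes were called.

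The 11 P450 rows too low for a test in heart had 7 to 101 counts each over the 6 Sal-exposed hearts and 8 to 53 over the 6 control hearts. The median was higher in Sal-exposed hearts for 8 of them and lower for 3, CYP7A1, CYP17A1 and CYP24A1. CYP1A1 and CYP2AC2 were nearly level, with medians of 0.0471 and 0.0584 CPM in Sal-exposed hearts and 0.0418 and 0.0527 CPM in control hearts. CYP3A5 had 0.208, 0.498 and 1.58 CPM in Sal-exposed hearts, against 0.0223, 0.17 and 0.253 CPM in control hearts, from 101 and 44 counts in all. Its 6 Sal-exposed hearts were above the control median, and DESeq2 gave a log2FC of 2.01 (SE 0.61, adjusted p = 0.0301). Sal-exposed hearts 1, 4 and 3 were highest, at 1.58, 0.842 and 0.723 CPM, from 30, 12 and 30 counts. Sal-exposed hearts 2, 5 and 6 had 0.208, 0.274 and 0.268 CPM, from 6, 11 and 12 counts. These were close to the highest control heart, heart 3, with 11 counts. Sal-exposed hearts 4 and 6 thus had the same number of counts, since 1 count was 0.0701 CPM in heart 4 and 0.0223 CPM in heart 6. The mitochondrial share was 72.0% in Sal-exposed heart 1, 79.6% in heart 4 and 42.7% in heart 3. Its part in the DESeq2 result for CYP3A5 was not tested. CYP2C23a had 0.249, 0.448 and 1.06 CPM in Sal-exposed hearts and 0.0711, 0.189 and 0.368 CPM in control hearts (log2FC 1.34, SE 0.46, edgeR adjusted p = 0.163), and 3 of the 6 Sal-exposed hearts were above every control heart. CYP2AC1, too low for a test in edgeR, had 0.0996, 0.353 and 0.561 CPM in Sal-exposed hearts and 0, 0.114 and 0.161 CPM in control hearts. Sal-exposed hearts 1, 3 and 4 were also the highest for CYP2C23a and CYP2AC1. Heart 4 had 8 counts for each, against 16 in control heart 3 for CYP2C23a and 8 in control heart 6 for CYP2AC1. Not every low row shared this order. For CYP2C18, CYP1A2 and the CYP2W1 row ENSGALG00010022388, Sal-exposed heart 1 had 0, 0 and 0.0528 CPM. Sal-exposed heart 4 had 0.0701, 0.0701 and 0 CPM for them. Sal-exposed heart 3 had 0.0482, 0.265 and 0.530 CPM, and was the highest of its group for CYP1A2 and that CYP2W1 row. For CYP2AC2, Sal-exposed hearts 4 and 1 were highest, at 0.210 and 0.106 CPM, from 3 and 2 counts. The hepatocyte markers had higher values in Sal-exposed hearts too. ALB, the gene of serum albumin, had 16.9, 23.7 and 67.1 CPM in Sal-exposed hearts and 4.60, 5.38 and 8.16 CPM in control hearts, without overlap. Sal-exposed hearts 3, 4 and 1 were highest for ALB too, at 67.1, 29.6 and 28.9 CPM. Over all 11 hepatocyte marker rows the summed level was 26.1 to 103 CPM in Sal-exposed hearts and 8.63 to 13.9 CPM in control hearts, with 3 of 10 tested rows called higher and none lower, where 0.111% of all genes tested were called in heart. One TTR row was at 0 in all Sal-exposed hearts. The part of these marker levels in the P450 values of the heart was not tested.

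**Figure D5:**
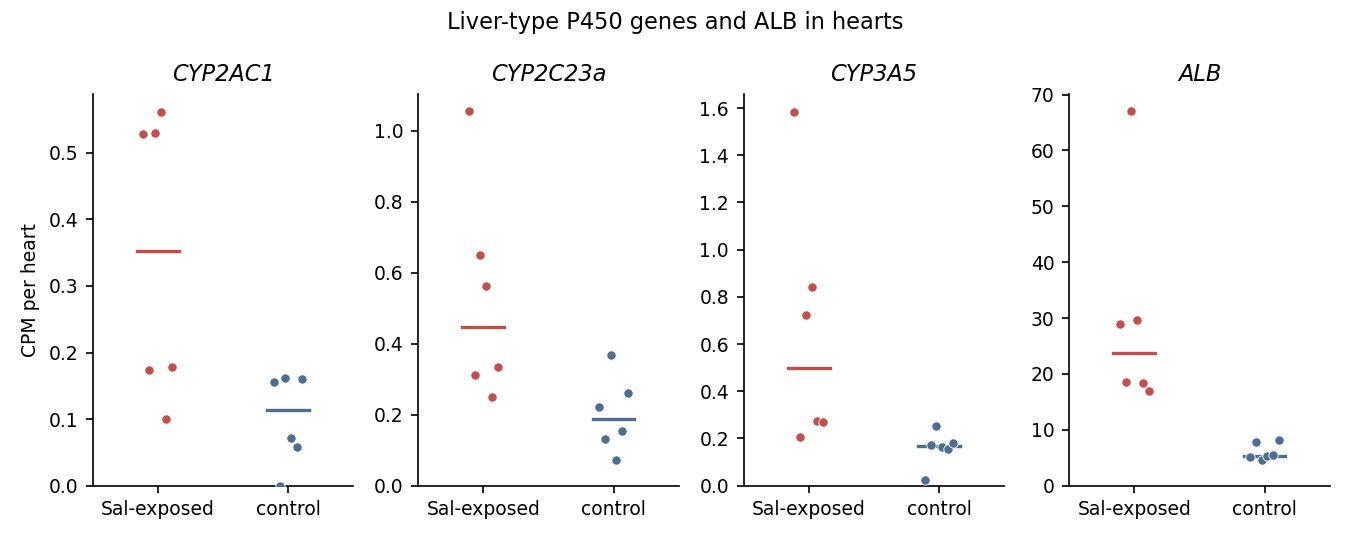
CPM per heart on linear axes for CYP2AC1, CYP2C23a, CYP3A5 and the hepatocyte gene ALB, Sal-exposed hearts in red to the left of control hearts in blue, with a bar at the median. ALB is without overlap between the groups, and the P450 values lie near or below 1 CPM in all but Sal-exposed heart 1, where CYP2C23a and CYP3A5 reached 1.06 and 1.58 CPM.

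The difference between Sal-exposed and control birds was itself compared between liver and heart. Of 31 members tested for this interaction 6 were called, or 19.4%, against 10.6% of all 14632 genes tested. The interaction was positive for 2 and negative for 4, where 5.99% and 4.59% of all genes tested were called in those directions. CYP3A5 and the CYP2W1 row ENSGALG00010022388, among the 6, did not pass the count filter in heart and entered this fit through their liver counts. Of the 20 members that passed the filter in each tissue on its own, 4 were called, where 11.1% of all genes that did so were called. CYP2U1, with 3.25, 3.66 and 6.33 CPM in Sal-exposed hearts and 3.89, 4.79 and 6.15 CPM in control hearts, had a log2FC of 1.61 in liver and -0.24 in heart (interaction 1.91, SE 0.35, edgeR adjusted p = 0.00132). CYP7B1, with 3.90, 6.59 and 7.63 CPM in Sal-exposed hearts and 5.76, 7.21 and 9.45 CPM in control hearts, had a log2FC of 1.12 in liver and -0.27 in heart (interaction 1.45, SE 0.36, edgeR adjusted p = 0.00773). For both genes the Sal-exposed and control hearts overlapped.

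CYP4F11 had a log2FC of -1.05 in liver and 0.72 in heart (interaction -1.72, SE 0.45, edgeR adjusted p = 0.0124). In heart it had 4.70, 12.3 and 19.6 CPM in Sal-exposed birds and 3.51, 7.67 and 10.4 CPM in control birds, which did not pass the test there. The interaction was also called for CYP2C23a (-3.44, SE 0.84), CYP3A5 (-3.05, SE 0.83) and the CYP2W1 row ENSGALG00010022388 (-2.04, SE 0.65). These 3 rows had only 145, 145 and 76 counts over all 12 hearts, so the size of their interaction rests on few heart counts. CYP2AC2 and CYP3A4, called in liver, were not called for the interaction (-1.35, SE 0.66, and -0.86, SE 0.45).

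Partner genes of the P450 enzymes were taken from 4 lists, of electron donors, heme enzymes, regulators, and other heme-thiolate and epoxide enzymes, with 47 of 56 symbols in the count table. Of 10 electron donors tested in liver none passed the adjusted p in edgeR, with 1 at an unadjusted p below 0.05. POR, the reductase that serves the microsomal P450 enzymes, had 99.8, 197 and 305 CPM in Sal-exposed livers and 163, 211 and 306 CPM in control livers (log2FC -0.16, SE 0.24). CYB5A, cytochrome b5, had a log2FC of 0.39 (SE 0.19), and the mitochondrial FDX1 and FDXR had log2FC of -0.25 (SE 0.19) and 0.26 (SE 0.31).

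Of 11 heme genes tested in liver, 1 passed the adjusted p, a smaller share than the 15.4% of all genes tested. ALAD, an early enzyme of heme synthesis, had 49.2, 61.6 and 121 CPM in Sal-exposed livers and 108, 118 and 158 CPM in control livers. Only Sal-exposed liver 2 reached the control livers, and the log2FC was -0.78 (SE 0.23, edgeR adjusted p = 0.0321), short of the fold required. ALAS1, the rate-limiting enzyme of that path in liver, had a log2FC of -0.25 (SE 0.29, edgeR adjusted p = 0.584). Of the 11 genes, 5 had a log2FC above 0 and 6 below. FECH, also on this list, was higher without overlap but did not pass (log2FC 0.36, SE 0.14, edgeR adjusted p = 0.105). It was the 1 heme gene without overlap in liver, where 5.73% of all genes tested had none.

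Of 21 regulators tested in liver, 2 were called, or 9.52%, close to the 7.01% of all genes tested. The adjusted p was passed by 5, or 23.8%, 2 higher and 3 lower, where 15.4% of all genes tested passed it. NR1I3, a nuclear receptor that senses foreign compounds, fell. It had 23.9, 28.9 and 55.2 CPM in Sal-exposed livers and 36.1, 67.5 and 92.4 CPM in control livers, and 5 of 6 Sal-exposed livers were below every control liver (log2FC -1.03, SE 0.24, edgeR adjusted p = 0.0147). PPARG, a nuclear receptor of fat storage, rose, with 7.89, 10.5 and 21.3 CPM in Sal-exposed livers and 3.53, 5.84 and 6.77 CPM in control livers without overlap (log2FC 1.09, SE 0.25, edgeR adjusted p = 0.0138). With smaller changes, NR1H3, the oxysterol receptor LXR alpha, was higher (log2FC 0.57, SE 0.18, edgeR adjusted p = 0.0485). RXRA, the partner of these receptors, was lower (log2FC -0.50, SE 0.16, edgeR adjusted p = 0.048), and so was ARNT, the partner of the aryl hydrocarbon receptor (log2FC -0.63, SE 0.20, edgeR adjusted p = 0.0458). ARNT2 and AHR2, on the same list, were higher but did not pass. Their log2FC were 2.01 (SE 0.66, edgeR adjusted p = 0.0522) and 0.63 (SE 0.35, edgeR adjusted p = 0.231). ARNT2 was low, with a median of 0.619 CPM in control livers. PPARD was lower without overlap and did not pass (log2FC -0.58, SE 0.20, edgeR adjusted p = 0.0631). PPARG and PPARD were the 2 regulators without overlap in liver, where 5.73% of all genes tested had none. HNF4A had a log2FC of -0.52 (SE 0.35, edgeR adjusted p = 0.329). None of the 4 epoxide and heme-thiolate genes tested passed in liver, and in heart none of 39 partner genes tested passed the adjusted p in edgeR, with 6 at an unadjusted p below 0.05.

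Marker genes of cell types were also counted in liver, where 15.4% of all genes tested passed the adjusted p. The hepatocyte markers summed to 88966 to 188708 CPM in Sal-exposed livers and 102395 to 271317 CPM in control livers. Of their 11 rows, 2 were lower at the adjusted p and none higher, or 18.2%, near that share. All 11 rows had a log2FC below 0, against 50.7% of all genes tested, and their median log2FC was -0.77. The cholangiocyte markers summed to 46.4 to 65.4 CPM in Sal-exposed livers and 78.0 to 108 CPM in control livers, without overlap, with 2 of 4 rows lower. Of the stellate cell and fibroblast markers 2 of 6 were lower, of the erythrocyte markers 2 of 4, of the endothelial markers 1 of 6, and of the leukocyte and macrophage markers 1 of 8 was lower and 1 higher. Their part in the P450 values was not tested. Cardiomyocyte markers summed to 23006 to 32786 CPM in Sal-exposed hearts and 19909 to 24282 CPM in control hearts, and to at most 15.6 CPM in Sal-exposed livers and 139.6 CPM in control livers.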

How the data were processed

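RNA-seq counts of 24 chicken libraries were used, grouped by the labels. The authors trimmed reads with fastp, aligned them with STAR to the GRCg7b genome and quantified genes with RSEM. Tool versions are not given in the sources used here, nor is the strand setting. The deposited table gives each Ensembl gene a whole-number count, not normalized. The count table has 36 columns, of which 12 match no sample and were not used. The authors' tables of their own DESeq2 comparison hold log2 fold changes, a Wald score and p-values, which were not used, except for gene symbols and positions.

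Counts were fitted in R 4.3.3 with edgeR 4.0.16, after TMM scaling and filterByExpr (minimum count 10, minimum total 15), per tissue. The interaction used all 24 libraries. Control livers were set against control hearts in a fit of the control libraries alone. Alternatives used edgeR, DESeq2 1.42.0 and sva 3.50.0. Only the edgeR and DESeq2 fits of Sal-exposed against control libraries per tissue, without further terms, were tested on simulated data. Members passing the filter numbered 30 in liver and 21 in heart, and CYP24A1 passed in none. Depth was 31.4 to 44.5 M counts per library. The p-values set the difference between groups against the spread between libraries within a group. Birds were housed in pens, and the pen of each bird is not given in the sources used here. Effects of pen and diet therefore cannot be told apart. Ratios of neighbouring genes were taken within each liver with 0.5 added to each count for the log2 ratio.

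Members, lists and the naming rule were chosen with earlier results of these data known. Full values are given for members past the adjusted p in heart, liver or the interaction, for CYP3A4, CYP2C23a, CYP2AC2, CYP4F11, CYP2U1 and CYP7B1, for the 3 with most CPM in control livers and in control hearts, and for CYP7A1, CYP27A1, CYP51A1 and CYP2R1. Of the partner genes, those past the adjusted p are named, with POR, CYB5A, FDX1, FDXR, ALAS1, NR1I3 and HNF4A. AHR, on the same list, was not analysed here by that symbol. Other genes were named after their values were seen. Alternatives were DESeq2, upper-quartile scaling, no count filter, mitochondrial genes left out, a replicate block, surrogate variables, all 24 libraries in 1 fit, the adjusted p alone and each library left out. The mitochondrial covariate, the fit without Sal-exposed hearts 1 and 4, and the neighbour ratios were added after the data were seen. RefSeq genes of GRCg7b gave the second names of rows. Sequences were not used here.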

Additional observations from a re-analysis of the deposited data

Results flagged for a closer look

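Of 102 groups of 6 libraries examined for members tested in that tissue, 6 held 1 library apart from the other 5, and chance gives about 1 in 20. Control liver 4 stood apart for CYP2C18, at 2284 CPM against 91.9 to 221 CPM in the other control livers, and for CYP1A2, at 781 CPM against 132 to 320.1 CPM. Sal-exposed liver 4 stood apart for CYP2C23a, at 692 CPM against 209.7 to 314 CPM in the other Sal-exposed livers, and for CYP39A1, at 138 CPM against 63.2 to 88.7 CPM. Sal-exposed liver 5 was low for CYP46A1, at 34.6 CPM against 46.5 to 52.3 CPM, and Sal-exposed heart 2 was high for CYP39A1, at 16.3 CPM against 10.7 to 12.6 CPM.

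For 6 members the difference between Sal-exposed and control birds was itself called different in liver and heart. The value is the interaction term in edgeR, as log2FC in liver minus log2FC in heart. For CYP2C23a, CYP3A5 and the CYP2W1 row the size of this term rests on only 145, 145 and 76 counts over all 12 hearts. CYP3A5 and the CYP2W1 row missed the count filter in heart and entered through their liver counts. The term was 1.91 for CYP2U1 and 1.45 for CYP7B1. It was -1.72 for CYP4F11, -2.04 for the CYP2W1 row ENSGALG00010022388, -3.05 for CYP3A5 and -3.44 for CYP2C23a. In all 24 fits that left out 1 library, CYP2U1, CYP7B1, CYP4F11, CYP3A5 and CYP2C23a were called, and the CYP2W1 row was called in 18.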

How the results depend on the processing

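For the liver, 0 members were called with surrogate variables in edgeR, 1 with surrogate variables in DESeq2 and 3 with the mitochondrial share as a covariate, against 6 without these terms. Over all genes these fits called 0, 387 and 791 genes, against 952 in edgeR and 1342 in DESeq2 without these terms. The cause was not tested. Leaving out 1 liver gave 2 to 7 members. For the heart, DESeq2 called 1 member with and without surrogate variables, where it called 255 and 171 of all genes. Leaving out 1 heart in edgeR gave 0 members. Those fits called 0 of all genes without any 1 control heart, and 3 to 72 without any 1 Sal-exposed heart. With so few calls over all genes, the 0 tells little about the members. Leaving out 1 library gave 5 to 6 for the interaction and 24 to 26 for control liver against control heart. With the replicate number as a block, 0 members were called in heart, 5 in liver, 5 for the interaction and 23 between the tissues. Over all genes that block left 0 calls in heart and 563 in liver. The numbers did not pair Sal-exposed with control samples: same-numbered samples deviated together (correlation over 0.1) in 0 of 6 pairs in heart and 1 of 6 in liver. Between liver and heart they did so in 5 of 6 Sal-exposed pairs, and in 2 of 6 control pairs. Best matches were with the own number in 4 and 3 of 6 pairs. The labels do not say whether a number marks 1 bird, and the interaction without the block treats livers and hearts as independent. No called member turned its direction in liver or interaction under any alternative run. CYP3A5, not called in liver, had a log2FC of 0.25 with surrogate variables in edgeR. With the fold required, the calls over all genes were 0 to 255 in heart, against 15, and 0 to 1464 in liver, against 952. The adjusted p alone gave 25 in heart and 2093 in liver. Upper-quartile scaling put 58.0% of the liver calls higher, against 47.7% with TMM. Counts near or below 1 CPM in heart limit the fold changes there.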

Other observations

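P450 genes of RefSeq lie in rows that carry another symbol or none, and 3 such rows were looked at after their values had been seen. CYP8B1, a sterol hydroxylase of bile acid synthesis, lies in RefSeq wholly within the row named ACKR2 (chromosome 2, 2108718 to 2118423 on GRCg7b), so the counts of that row may come from either gene. The row had 23.3, 49.1 and 167 CPM as lowest, median and highest in Sal-exposed livers and 65.2, 191 and 539 CPM in control livers, with 4 Sal-exposed livers below every control liver (log2FC -1.58, SE 0.55, edgeR adjusted p = 0.0635). The unnamed row ENSGALG00010027108 (chromosome 8, 26375102 to 26391420) covers CYP2J21 of RefSeq and fell in Sal-exposed livers. It had 33.9, 50.5 and 62.2 CPM there, against 54.7, 97.3 and 160.1 CPM in control livers, with all Sal-exposed livers below the control median (log2FC -1.12, SE 0.26, edgeR adjusted p = 0.0144). The unnamed row ENSGALG00010026909, which covers most of CYP2J22, had 9.77, 12.3 and 16.8 CPM in Sal-exposed livers and 9.62, 14.9 and 26.5 CPM in control livers (log2FC -0.22, SE 0.25).

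The spread between birds differed widely among members. Over the 30 members tested in liver, the coefficient of variation of CPM was 13.1 to 79.9% in Sal-exposed livers and 14.8 to 171% in control livers, the highest being CYP2C18. It was larger in control livers for 16 of the 30. P450 counts as a whole made up 0.432 to 0.626% of a Sal-exposed liver's counts and 0.372 to 0.951% of a control liver's counts. The medians were 0.512% in Sal-exposed and 0.486% in control livers, and the highest control value came from control liver 4. Families 1 to 3 held 43.4 to 54.7% of the P450 counts in Sal-exposed livers and 36 to 74.7% in control livers, with medians of 47.6 and 62.7%. None of these shares was tested.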
